A study of Bos taurus with 56 samples.

Results

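Accessible chromatin of cattle (Bos taurus) blastocysts was compared between embryos labelled as derived in vivo and embryos that carry no such label. The comparison covered all 2587 peaks of the in vivo blastocyst list and all 3397 peaks of the blastocyst list without the label, 5984 of the 673059 peaks deposited for 11 groups of oocytes and embryos. A peak is a stretch of the genome where ATAC-seq, which reads out the insertions of a transposase into open chromatin, gave more signal than its surroundings. Peaks of the lists were split into shared peaks, which met a peak of the other blastocyst list over 1 bp or more, peaks found in vivo only and peaks found only without the label. The in vivo list was merged by the authors from 4 libraries and the list without the label from 3. Embryos were pooled for sequencing, and the sources used here give no breed, age in days, sex or culture. How the embryos without the label were produced is likewise not stated, so they are not called in vitro embryos here. The lists used beside them were those of morulae (6 libraries), morulae labelled in vivo (4 libraries) and day 14 elongating embryos (6 libraries), and the lists of both oocyte stages and of 2-cell to 16-cell embryos served as context.

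The blastocyst is the stage at which the mammalian embryo holds a fluid-filled cavity and its first separate lineages, the trophectoderm, which goes on to form the placenta, and the inner cell mass, which forms the embryo proper and the yolk sac. In cattle the blastocyst hatches and its trophectoderm then elongates before it attaches to the uterus, and the day 14 embryo belongs to that elongating phase. Embryos that develop in the oviduct and uterus are the usual standard against which other embryos are set. Open chromatin marks promoters, enhancers and other places where proteins bind DNA. The lists held positions only. Genes could not be assigned to peaks, because the gene table at hand is of another assembly than the UMD3.1 positions of the lists, and sequence under the peaks was not analysed here. The labelled stage could therefore not be checked against marker genes.

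Each group had 1 merged list with no score, height or read count, so that neither the spread between libraries nor sequencing depth is known. No test between the groups was possible. Shares are given with 95% exact Clopper-Pearson intervals, which cover counting error only and treat neighbouring peaks as independent.

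By number, less of each blastocyst list was shared with the other than not, and the shared peaks were the wide ones. Of the in vivo peaks 905 (35%) were shared, and of the peaks without the label 1039 (30.6%, interval 29.0% to 32.2%), against 32.5% over both lists together. The number left was 1682 peaks found in vivo only and 2358 found only without the label. By bases the lists were closer, since the shared peaks held 54.1% of the bases covered in vivo and 54.6% of those covered without the label. Bases inside a peak of both lists summed to 586 kb, which was 40.0% of the in vivo list, 46.6% of the list without the label and 27.4% of the 2.14 Mb covered by either.

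Shared peaks in vivo had a median width of 621 bp (quartiles 406 and 1021 bp), against 351 bp (297 and 436 bp) for peaks found in vivo only. Without the label the medians were 461 bp (quartiles 278 and 762 bp) and 197 bp (164 and 261 bp). In both lists the share found in the other list was highest among the widest peaks. Of the in vivo peaks of 1000 bp or more, 231 of 252 (91.7%, interval 87.5% to 94.8%) were shared, and without the label 173 of 186 (93.0%, interval 88.3% to 96.2%). Among peaks of 300 to under 400 bp the shares differed by list, at 15.1% in vivo (121 of 800, interval 12.7% to 17.8%) and 41.6% without the label (150 of 361, interval 36.4% to 46.8%). Peaks narrower than 241 bp, the narrowest width in vivo, existed only in the list without the label, where they numbered 1805 (53.1%), and 187 of them (10.4%) were shared.

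**Figure D1:**
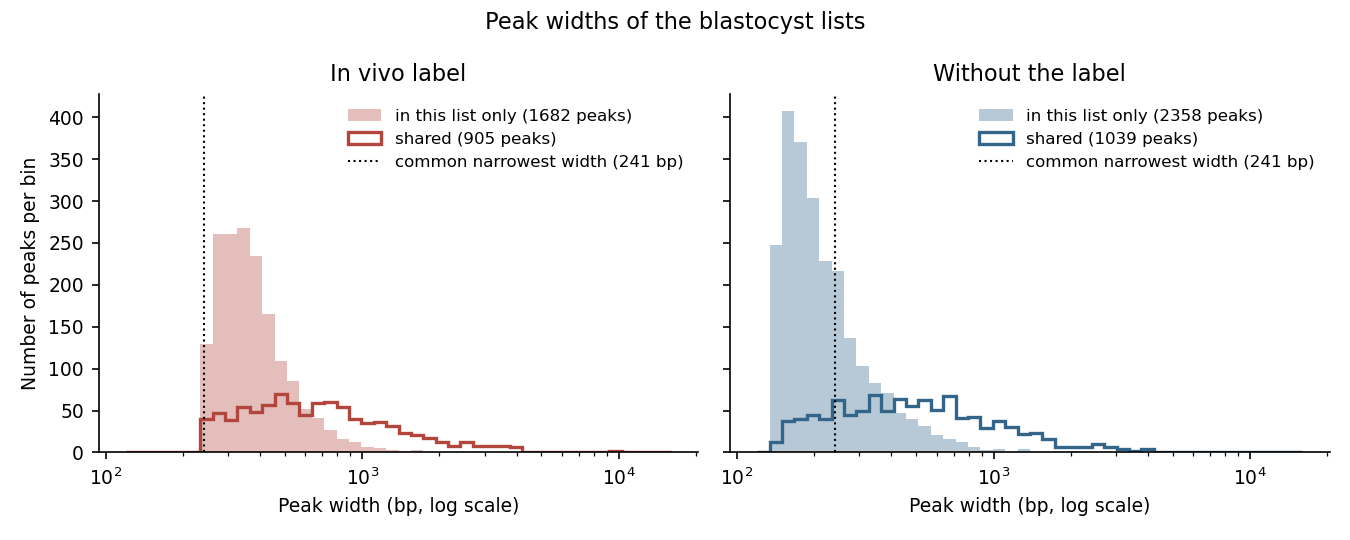
Number of peaks by width (bp, log scale) in the in vivo blastocyst list (left) and in the list without the label (right). Filled bars are peaks found in that list only, lines are shared peaks, and the dotted line marks 241 bp, below which the in vivo list held no peak. Shared peaks reach further to the right than unshared ones in both lists.

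The direction of the difference in list length depended on this lower bound of width. The in vivo list was 0.762 times as long as the list without the label, but 1.63 times as long with narrower peaks than 241 bp left out of both, at 2587 against 1592 peaks. With the same bound, 53.5% of the peaks without the label and 30.2% of the in vivo peaks were shared. The sources used here do not say which settings gave the lists their different narrowest widths, and in these lists settings and embryos cannot be told apart.

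Overlapping peaks of the lists formed 877 shared regions, and these were described by the bases that each list covered in them. In 729 regions (83.1%) a single in vivo peak met a single peak of the other list. In 123 regions 1 in vivo peak lay over several peaks without the label, up to 5 of them, whereas the opposite arrangement was found in 21 regions. Peaks that met singly were centred close together, with a median distance of 61.5 bp between centres and 481 of 729 (66.0%) within 100 bp. In 240 of these pairs the peak without the label lay inside the in vivo peak, in 221 the in vivo peak lay inside the other, and 268 overlapped at the edges.

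At shared regions the in vivo list covered slightly more bases. The median covered width was 644 bp in vivo (quartiles 416 and 1066 bp) and 545 bp without the label (319 and 909 bp), and the median ratio over regions was 1.12 (interval 1.08 to 1.18). The in vivo width was the larger in 531 regions (60.5%), the smaller in 342 and equal in 4. In the 120 regions with less than 241 bp covered without the label the median ratio was 2.19, and every such ratio lies above 1 because no in vivo peak is that narrow. In the 375 regions with 400 to under 1000 bp covered without the label it was 0.977, and in the 195 regions of 1000 bp or more 0.993. When regions were classed by their in vivo width instead, the ratio was 0.981 in the 205 regions under 400 bp and 1.21 in the 241 regions of 1000 bp or more. Classing by the width in either list selects for low values of that list in narrow classes and for high values in wide ones. Neither order therefore shows on its own where the widths differ. With peaks of at least 241 bp in both lists the median ratio over 754 regions was 1.04.

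**Figure D2:**
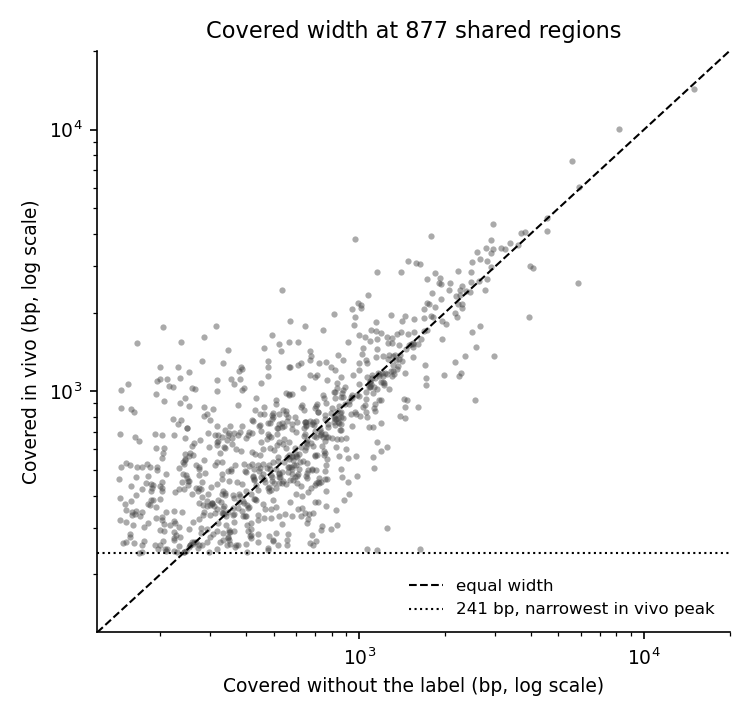
Bases covered by the in vivo list (vertical, log scale) against bases covered by the list without the label (horizontal, log scale) at the 877 shared regions, 1 point per region. The dashed line marks equal width and the dotted line 241 bp. Points above the dashed line, 531 in number, are regions with more bases covered in vivo, and most of the far ones lie at the left edge.

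The 3 widest shared regions all lay on chromosome 17. The first, from 25029576 to 25044649 (UMD3.1), held 14956 bp in 1 peak without the label and 14319 bp in 3 in vivo peaks. The second, from 50865693 to 50875751, was covered by 1 in vivo peak of 10059 bp and by 8186 bp in 2 peaks without the label. The third, from 50929028 to 50936590, was covered by 1 in vivo peak of 7563 bp and by 5 peaks of 5588 bp together without the label. None of the 3 met a peak of GV or MII oocytes, and each met a peak in every embryo list from the 2-cell stage on.

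The most extreme width ratios came from regions where 1 list had a peak below its median width (393 bp in vivo, 230 bp without the label). The highest lay on chromosome X from 56047075 to 56048607, with 1533 bp in vivo and 166 bp without the label (9.23 times), and from 64090133 to 64091896, with 1764 and 205 bp (8.60 times). The next lay on chromosome 17 from 64501277 to 64502345, with 1069 and 154 bp (6.94 times). In the other direction, the lowest ratio lay on chromosome 7 from 56599272 to 56600898, with 251 bp in vivo and 1627 bp without the label (0.154 times). It was followed by chromosome 1 from 145361195 to 145362343, with 248 and 1149 bp, and chromosome 14 from 479670 to 480759, with 250 and 1062 bp. These 3 regions of low ratio lay in windows rich in peaks, which are described next.

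Both lists were concentrated in the same few places, and these clusters held more peaks without the label. The genome was divided into windows of 1 Mb, and the 10 fullest windows of each list were taken, 14 windows in all, of which 6 were among the 10 fullest of both lists. They held 978 peaks without the label (28.8%, interval 27.3% to 30.3%) and 478 in vivo peaks (18.5%, interval 17% to 20.03%). Inside them 394 of the 478 in vivo peaks (82.4%) were shared, against 453 of the 978 peaks without the label (46.3%). Outside them the shares were the same in both directions, at 24.2% of 2109 in vivo peaks and 24.2% of 2419 peaks without the label. As a share of its list, the list without the label was the higher in 9 of the 14 windows, with intervals apart in 3. The windows were chosen for their number of peaks, so that the count inside them is a description.

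The fullest window without the label lay on chromosome 27 between 28 and 29 Mb, with 145 peaks, or 4.27% of the list (interval 3.61% to 5.0%). In vivo it held 21 peaks, or 0.812% (interval 0.503% to 1.24%), and all 21 overlapped a peak of the other list. The same was seen on chromosome 8 between 74 and 75 Mb, where 15 of 16 in vivo peaks were shared and the list without the label held 110 peaks (3.24% against 0.618%). In these windows the list without the label held nearly every in vivo peak and further peaks, 123 and 96 of them unshared. Peaks under 241 bp made up part of the surplus, since 78 of the 145 and 52 of the 110 were at least that wide.

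On chromosome 14 between 0 and 1 Mb the lists held 129 peaks without the label (3.80%, interval 3.18% to 4.50%) and 60 in vivo (2.32%, interval 1.77% to 2.98%), 55 of the latter shared. On chromosome 1 between 145 and 146 Mb, 59 of 60 in vivo peaks were shared and there were 120 peaks without the label. All 120 fell within 159 kb, a stretch where both lists had peaks of nearly the same median width, 482.5 bp in vivo and 495.5 bp without the label. On chromosome 29 between 30 and 31 Mb, 61 of 63 in vivo peaks were shared, and the other list held 116 peaks. For these windows on chromosomes 1 and 29 the intervals of the lists' shares overlapped, whereas for those on chromosomes 8, 14 and 27 they lay apart. The windows were chosen on these same counts, those on chromosomes 8 and 27 through the list without the label only. Peaks within a window also lie clustered, so the intervals are a description and not a test.

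Of the other full windows, some held similar numbers in both lists and some did not. On chromosome 17 between 51 and 52 Mb there were 56 in vivo peaks and 70 without the label, 39 and 56 of them shared, with median widths of 598.5 and 313 bp. On chromosome 6 between 6 and 7 Mb there were 41 in vivo and 40 without the label, 30 and 32 of them shared. On chromosome 7 between 56 and 57 Mb there were 14 in vivo, all shared, against 42 without the label, and on X between 37 and 38 Mb 21 against 46. A window outside the 14 was singled out after its values were seen, on chromosome 5 between 114 and 115 Mb, where 38 peaks without the label stood against 2 in vivo.

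**Figure D3:**
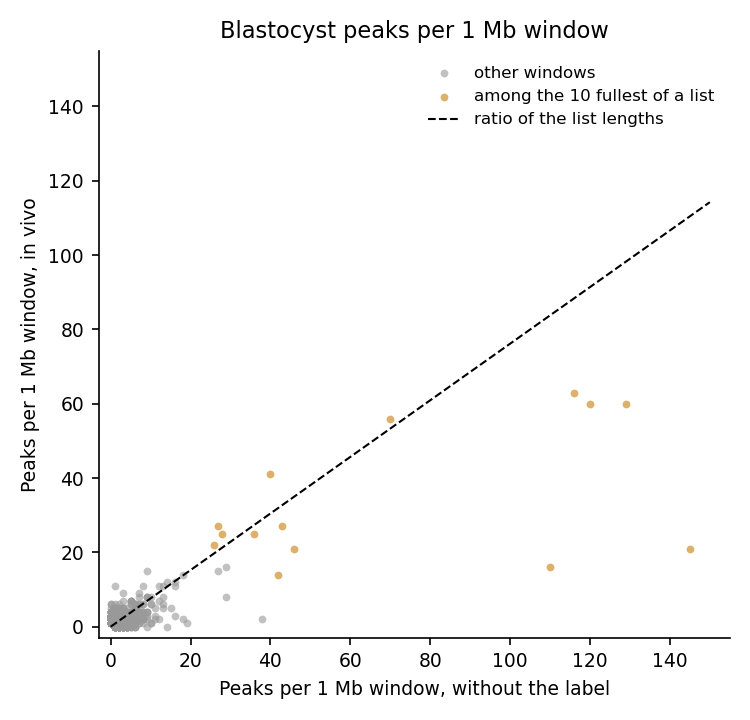
Peaks per 1 Mb window in the in vivo list (vertical) and in the list without the label (horizontal), 1 point per window with a peak in either list. Orange points are the 14 windows among the 10 fullest of a list, and the dashed line is the ratio of the list lengths, 0.762. The points far to the right, all below the line, are the windows with 110 to 145 peaks on chromosomes 1, 8, 14, 27 and 29. Those on chromosomes 8 and 27, with 16 and 21 in vivo peaks, lie furthest below it.

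Peak density per autosome, divided by the mean of the 29 autosomes of its list, followed the clusters where it was highest. In vivo the densest autosomes were 17 (2.37 times the mean, interval 2.03 to 2.74), 29 (1.94 times) and 14 (1.76 times). Without the label they were 27 (3.59 times, interval 3.12 to 4.11), 29 (2.64 times) and 17 (2.13 times). With the 14 windows left out, peaks and length, autosome 17 was at 1.04 times the mean in vivo (interval 0.792 to 1.34) and 0.708 times without the label (interval 0.516 to 0.947). Autosome 27 was then at 1.48 and 1.36 times the mean in vivo and without the label, and autosome 29 at 0.768 and 1.10 times. Autosome 8, which kept 147 in vivo peaks and 177 peaks without the label, became the densest in both lists, at 1.69 times (interval 1.44 to 1.97) and 1.83 times (interval 1.58 to 2.10).

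The lowest in vivo were 25 (11 peaks, 0.275 times the mean), 19 (22 peaks, 0.368 times) and 11 (38 peaks, 0.380 times). Without the label they were 18 (23 peaks, 0.289 times), 22 (22 peaks, 0.297 times) and 20 (35 peaks, 0.402 times). Chromosomes 18, 19 and 25, known as gene-dense in cattle, together had 0.337 times the density of the other autosomes in vivo and 0.385 times without the label. Without the 14 windows these ratios were 0.409 and 0.546. The 9 other lists all had higher ratios, from 0.928 in the morula list and 0.989 in the in vivo morula list to 2.10 in the day 14 list.

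Between the lists, relative density differed most on autosomes 23 (in vivo 1.79 times the value without the label), 12 (1.65 times) and 20 (1.63 times) in one direction. In the other direction they were 27 (0.473 times), 25 (0.491 times) and 11 (0.631 times). Counts were small on autosome 23, with 36 in vivo against 26 without the label, and on autosome 25, with 11 against 29, and larger on autosome 27, with 72 against 197. Intervals of the lists lay apart on 3 autosomes, 6, 8 and 27, when all windows were used. With the 14 windows left out they lay apart on 2, autosome 1 (1.29 against 0.856 times) and autosome 11 (0.458 against 0.844 times). Across the 29 autosomes the densities of the lists had a Spearman correlation of 0.853 with all windows and 0.665 without the 14, as a description of points that share chromosome length and gene content. On X, which the autosome means leave out, lay 244 in vivo peaks (9.43%) and 364 peaks without the label, with overlapping intervals. Among shared peaks X held 15.1% in vivo and 17.3% without the label, and among unshared peaks 6.36% and 7.80%.

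**Figure D4:**
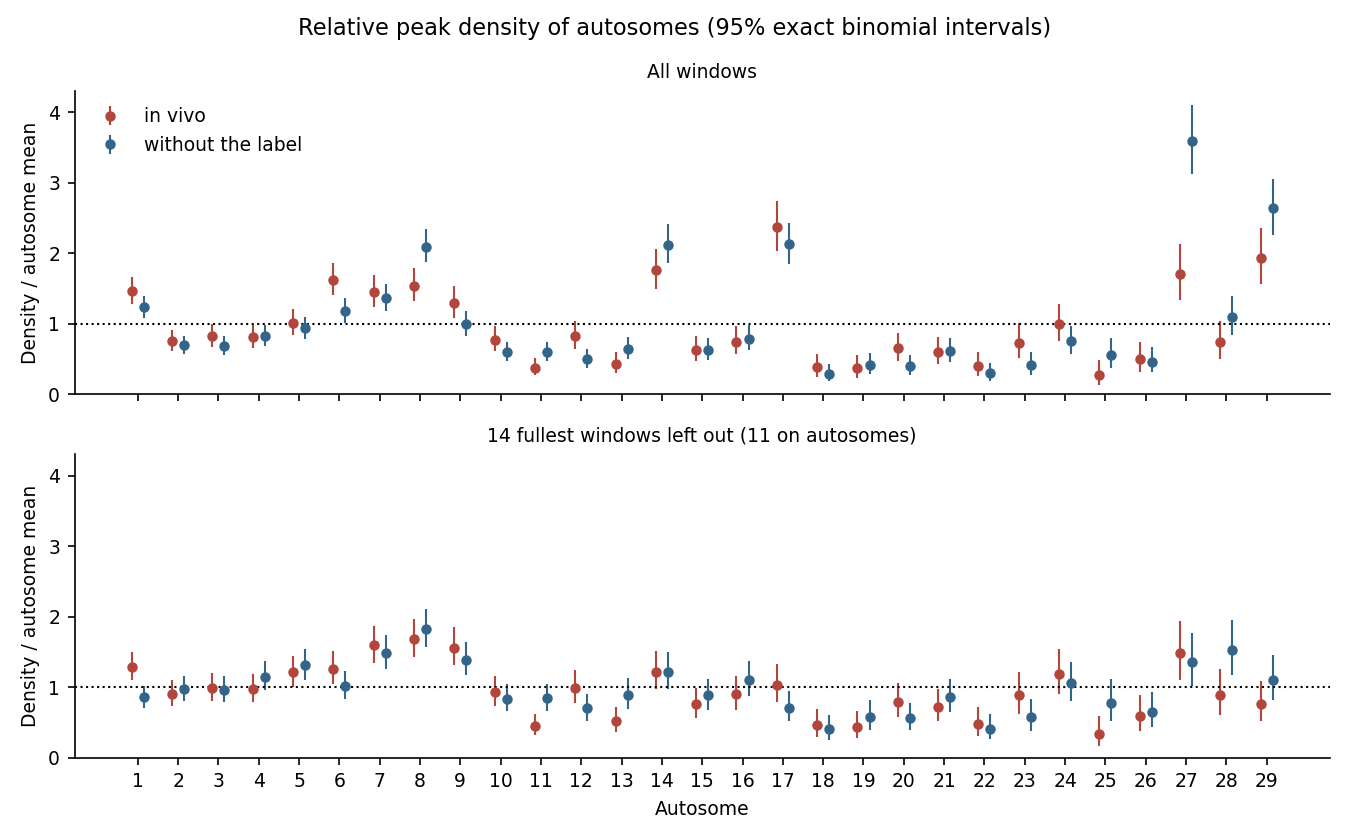
Peak density of each autosome divided by the autosome mean of its list, in vivo (red) and without the label (blue), with all windows (top) and with the 14 fullest windows left out (bottom). Bars are 95% exact binomial intervals and the dotted line marks the mean. The high values of autosomes 17, 27 and 29 at the top are lower at the bottom, where autosome 8 is highest in both lists.

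Peaks shared between the blastocyst lists were mostly found at other stages too. The shared peaks of both lists stand for the same 877 regions, so that similar values in the lists follow from the definition. Of the shared in vivo peaks 78.9% were in the morula list, 67.2% in the in vivo morula list and 95.8% in the day 14 list. For shared peaks without the label the values were 77.4%, 68.1% and 94.6%. Over all peaks of both blastocyst lists the shares were 35.5%, 28.9% and 53.8%, and over all peaks of the 8 lists that are neither blastocyst lists nor the list asked about they were 25%, 17.9% and 43.8%. Peaks of the GV oocyte, 2-cell and 4-cell lists, which are of similar length to the blastocyst lists, were found in them in 34.7%, 25.3% and 52.6% of cases. Among shared in vivo peaks 557 (61.5%) were in both morula lists and in day 14 embryos, 105 (11.6%) were in all 9 other lists and 10 (1.10%) in none. When classed by width in their own list, shared peaks of the lists differed more in the in vivo morula list. A width class then holds partly different regions in each list. The values by class therefore do not show a difference between the lists. At 300 to under 400 bp it held 34.7% of shared in vivo peaks (interval 26.3% to 43.9%). Of those without the label it held 60.7% (interval 52.4% to 68.5%). At 400 to under 600 bp the shares were 58.7% and 74.3%. The order was opposite at 600 to under 1000 bp (81.1% and 73.6%) and at 1000 bp or more (93.1% and 89.02%).

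Peaks found in 1 blastocyst list only differed between the lists most in the day 14 embryo. Of the peaks found only without the label 1026 of 2358 (43.5%, interval 41.5% to 45.5%) had a day 14 peak, and of those found in vivo only 345 of 1682 (20.5%, interval 18.6% to 22.5%). Both shares were below the 53.8% of all blastocyst peaks. The difference was wider among peaks of like width from 241 to under 1000 bp. It was 46.7% (150 of 321) against 12.9% (57 of 441) under 300 bp, 66.4% (140 of 211) against 15.8% (107 of 679) at 300 to under 400 bp, 72.7% against 26.6% at 400 to under 600 bp, and 84.4% (38 of 45) against 44.0% (51 of 116) at 600 to under 1000 bp. Among the few unshared peaks of 1000 bp or more it was 11 of 13 against 17 of 21. Outside the 14 windows it was 37.5% against 18%. The day 14 list and the list without the label reached down to narrow peaks, 125 and 137 bp, and both in vivo lists to 241 and 268 bp, and the part of this in the shares was not tested.

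In the morula lists the order over all widths was different. The in vivo morula list held a peak for 274 of the peaks found in vivo only (16.3%, interval 14.6% to 18.1%) and for 142 of those found only without the label (6.02%, interval 5.10% to 7.06%). At 600 to under 1000 bp the shares were 46.6% (interval 37.2% to 56.0%) and 13.3% (interval 5.05% to 26.8%), and in the other classes the intervals overlapped. The values were 66.7% (14 of 21) and 23.1% (3 of 13) at 1000 bp or more, 22.6% and 16% at 400 to under 600 bp, 11.3% and 9.0% at 300 to under 400 bp, and, in the opposite order, 7.48% (33 of 441) and 8.41% (27 of 321) at 241 to under 300 bp. The morula list without the label held 17.5% (interval 15.7% to 19.4%) and 13.2% (interval 11.8% to 14.6%). This second difference was not kept with peaks of at least 241 bp and sharing judged among them, where the values were 20.2% in vivo only and 21.1% only without the label. By width class its direction changed. It was 7.71% against 14.95% at 241 to under 300 bp and 13.3% against 22.7% at 300 to under 400 bp, with intervals apart. In the wider classes the intervals overlapped. The values were 24.2% and 26.7% at 400 to under 600 bp and 43.1% and 33.3% at 600 to under 1000 bp. At 1000 bp or more they were 85.7% (18 of 21) and 38.5% (5 of 13).

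Taking the morula lists jointly, 207 of the peaks found in vivo only (12.3%, interval 10.8% to 14.0%) were in both of them, against 75 of those found only without the label (3.18%, interval 2.51% to 3.97%). Among shared peaks the share in both was 62.3% in vivo and 62.0% without the label. Peaks found only without the label were in the morula list alone in 236 cases (10.01%, interval 8.83% to 11.3%) and in the in vivo morula list alone in 67 (2.84%, interval 2.21% to 3.59%). Those found in vivo only were split more evenly, with 88 (5.23%, interval 4.22% to 6.41%) in the morula list alone and 67 (3.98%, interval 3.1% to 5.03%) in the in vivo morula list alone. Of shared peaks, 16.6% in vivo and 15.4% without the label were in the morula list alone. In the in vivo morula list alone were 4.86% and 6.16%. The morula list covers 65.7 Mb and the in vivo morula list 42.5 Mb, and the part of this in the splits was not tested. With peaks of at least 241 bp, and sharing still judged on the full lists, 43 of 740 peaks found only without the label (5.81%) were in both morula lists and 113 (15.3%) in the morula list alone, while the in vivo values are the same. A day 14 peak with no peak in either morula list was found for 702 of the peaks found only without the label (29.8%, interval 27.9% to 31.7%) and for 115 found in vivo only (6.84%, interval 5.68% to 8.15%). Among shared peaks the values were 14.4% without the label and 14.3% in vivo.

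Many unshared peaks were in no other list at all. They numbered 1173 of those found in vivo only (69.7%, interval 67.5% to 71.9%) and 1178 of those found only without the label (49.96%, interval 47.9% to 52.0%). In the earlier stages the peaks found only without the label overlapped more often, with 7.68% against 2.32% in 2-cell embryos, 10.6% against 4.46% in 4-cell embryos and 16.3% against 10.4% in 8-cell embryos. In 16-cell embryos the shares were 11.7% and 11.5%. Over all peaks of each list the shares were closer at the 2-cell to 8-cell stages. They were 21.5% without the label and 20.9% in vivo in 2-cell embryos, and 25.8% and 24.7% in 4-cell embryos. In 8-cell embryos they were 31.2% and 30.3%, and in 16-cell embryos 28.4% and 31.7%. With peaks of at least 241 bp, and sharing still judged on the full lists, the in vivo values are the same, while of the peaks found only without the label 30.8% (228 of 740) were in no other list, 15.9% met a peak of 2-cell embryos, 20.3% of 4-cell, 29.3% of 8-cell and 21.1% of 16-cell embryos. Unshared peaks without the label also lay nearer to the other list, with a median distance of 61.6 kb to the nearest in vivo peak and 257 of 2358 (10.9%) within 1 kb. Those found in vivo only had a median distance of 295 kb, with 83 of 1682 (4.93%) within 1 kb. In the 14 fullest windows lay 525 of the unshared peaks without the label and 84 of those found in vivo only. The part of this in the distances was not tested.

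**Figure D5:**
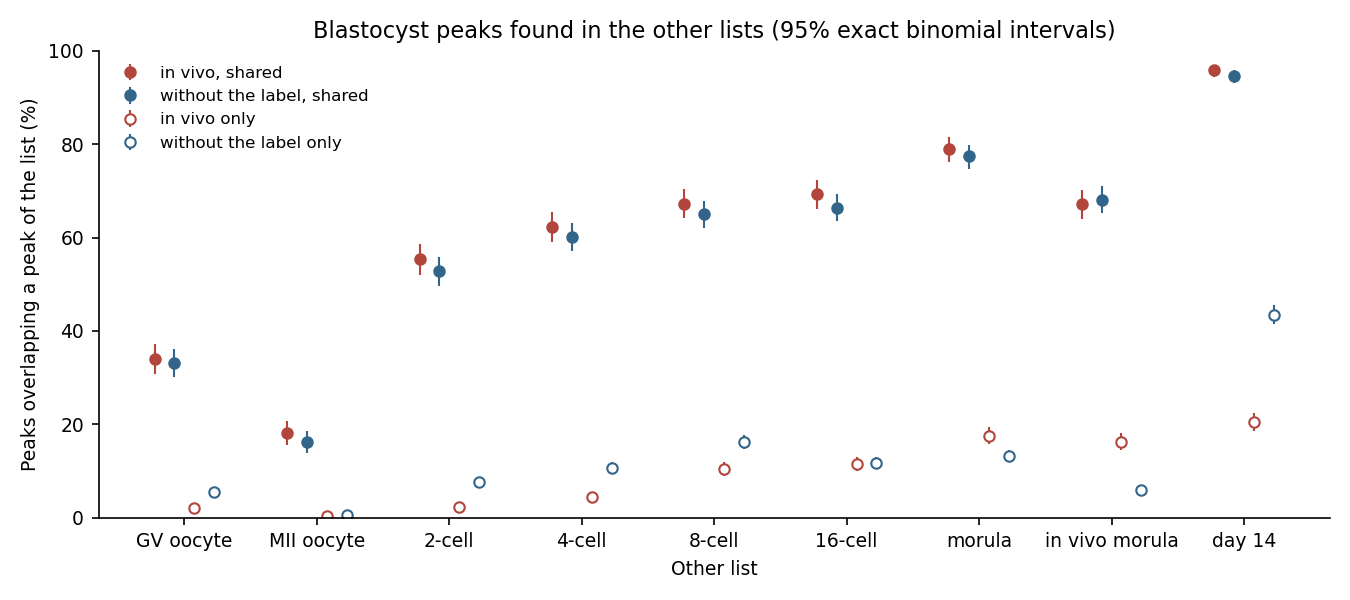
Share of blastocyst peaks (%) that overlap a peak of each of the 9 other lists, for shared peaks (filled) and peaks of 1 blastocyst list only (open), in vivo (red) and without the label (blue), with 95% exact binomial intervals. Filled points of both lists, which stand for the same 877 shared regions, lie close together in every other list. The open points lie apart in day 14 embryos, at 20.5% and 43.5%, and in the in vivo morula list, at 16.3% and 6.02%.

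The widest peaks found in vivo only lay on chromosome X from 102771729 to 102777738 (6010 bp), on chromosome 21 from 59331998 to 59334233 (2236 bp) and on chromosome 27 from 23716816 to 23718508 (1693 bp). The X region met a peak in every embryo list from the 8-cell stage on except that of blastocysts without the label, and was the widest of the in vivo only peaks found in both morula lists and at day 14. That on chromosome 21 was present in the in vivo morula list and absent from the other morula list, and present in GV oocytes, at the 4-cell to 16-cell stages and at day 14. The chromosome 27 region was in both morula lists and at day 14 too. The widest in vivo peak found in no other list lay on chromosome 12 from 76675995 to 76677111 and spanned 1117 bp.

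The widest peaks found only without the label all lay in the full windows. They were on chromosome 1 from 145440679 to 145442704 (2026 bp), on chromosome 7 from 56572385 to 56574394 (2010 bp) and on chromosome 14 from 133553 to 135394 (1842 bp). The chromosome 7 region was present from the 4-cell stage to both morula lists and again at day 14, and was the widest of its kind found in both morula lists and at day 14. That on chromosome 1 met peaks of 8-cell embryos, in vivo morulae and day 14 embryos, and that on chromosome 14 met peaks in 7 of the 9 other lists. The widest peak without the label that no other list held was 690 bp wide, on chromosome 28 from 2642272 to 2642961.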

How the data were processed

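ATAC-seq libraries of 11 groups (56 libraries in all) were deposited as 1 list of peak positions per group. The authors merged the library peaks of each stage, per the series description. The submitters' processing notes name Bowtie2 2.3, MACS2, bedtools, HOMER and build UMD3.1; the order of steps, thresholds and merging rule are not given there. The deposited lists hold chromosome, start and end only, so depth is unknown. Starts were taken as counted from 0 and are printed counting from 1, a convention the lists do not state.

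Peaks overlapping by 1 bp or more were called shared. Windows of 1 Mb were assigned by peak centre, and chromosome length was the last position in any list. Named regions followed a rule on width, ratio and fullness. The members, lists and rules were chosen with earlier results of these data known. On 10 simulated pairs of lists all 10 planted overlap counts were recovered, and on the real lists both directions equalled bedtools 2.31.1. Python 3.11.15 was used with scipy 1.17.1, numpy 2.4.6, matplotlib 3.10.9 and pandas 2.3.3.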

Additional observations from a re-analysis of the deposited data

How the results depend on the processing

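Leaving out replicate libraries was not possible with 1 merged list per group. No paired analysis was possible because the lists carry no libraries. Of 92 pairs of a main result and an alternative setting, 55 moved beyond the counting interval, 4 more changed direction and 33 did neither. For the ratio of covered bases that interval takes every base as independent. It is therefore very narrow (1.164 to 1.169), and moving beyond it says little. All 4 changes came from a minimum width. With peaks of at least 241 bp, or of at least the series median of 329 bp, the ratio of peak numbers was 1.63 or 1.72 in place of 0.762. The difference in the share with a morula peak (in vivo only minus without the label only) was -0.86 or -0.17 percentage points in place of 4.35. The cause was not tested.

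The share of in vivo peaks that were shared was 30.2% with peaks of at least 241 bp, 19.9% without early regions (found in 2 or more lists of GV or MII oocytes, 2-cell or 4-cell embryos), 24.2% without the fullest windows and 22.3% with 50% of both peaks overlapping. The share without the label was 53.5%, 17.6%, 24.2% and 16.96% in the same order, 62.1% with at least 329 bp and 28.6% with peaks closer than 500 bp joined. Among the 1000 widest peaks of each list, an alternative chosen after seeing the data, the shares were 50.1% in vivo and 55.4% without the label. The ratio of covered bases, 1.17, was 1.58, 1.59, 1.09, 1.30 and 1.40 with at least 241 bp, at least 329 bp, joined peaks, early regions left out and fullest windows left out. The ratio of peak numbers was 0.842 with joined peaks and 0.872 without the fullest windows. The median width ratio at shared regions, 1.12, was 1.18 from the widest single peaks, 1.04 and 1.03 with the minimum widths, 1.08 with joined peaks, 1.29 without early regions and 1.18 without the fullest windows.

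Differences between peaks of 1 list only kept their direction for the in vivo morula and day 14 lists under the 8 alternatives run. For the in vivo morula list, 10.3 points became 7.33 with at least 241 bp and 21.9 among the 1000 widest peaks. For the morula list it was 10.9 among the latter. For day 14, -23.0 points became -35.4 and -39.6 with the minimum widths, -19.5 without the fullest windows, -28.4 among the 1000 widest peaks and -18.5 with 50% overlap.

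The highest relative autosome density depended on the windows. In vivo it was 1.97 with the fullest window of each autosome left out, and 1.83, 1.69 and 1.72 with the 5, 10 and 20 fullest windows of either list left out. It was 1.66 and 1.70 with windows of 0.5 and 2 Mb, 1.65 with shifted windows and 4.57 by covered bases. Without the label it was 2.10, 1.80, 1.83, 1.94, 1.87, 1.86, 1.82 and 4.35 in the same order. On chromosomes 18, 19 and 25 the ratio without the label was 0.510, 0.546 and 0.580 with 5, 10 and 20 windows left out, 0.542 and 0.562 with windows of 0.5 and 2 Mb and 0.532 with shifted windows, and the in vivo ratio stayed within its interval under all 9 alternatives.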
